A study of Mus musculus with 369 samples.

Results

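A set of 10 genes of lipid uptake, transport and storage was followed in single microglia, the resident macrophages of the brain. The genes were chosen by symbol, with earlier results of these data known: Cd36, Lpl, Fabp5, Fabp3, Pltp, Abca1, Abcg1, Nceh1, Plin2 and Plin3. All 10 of 10 were found among the 23337 genes of the count table, and all 10 reached the measuring level of 5 CPM (counts per 1000000 gene counts) in at least 1 group. In all, 10554 genes reached that level. The cells came from whole brains of male C57BL/6J mice at postnatal day 7, either wild type or with Trem2 knocked out. Trem2 is a lipid-binding surface receptor of microglia. The sources used here do not describe the knockout allele or how many animals were pooled. Cells of each genotype were sorted through a gate for low CD45 and positive CD11b, called unselected here, or through that gate with surface Gpnmb and Clec7a in addition, called gated here. RNA of each cell was amplified by Smart-seq2, a plate method without molecular identifiers. After the quality calls given with the labels, 78 of 90 unselected wild-type, 90 of 93 gated wild-type, 90 of 93 unselected knockout and 76 of 93 gated knockout cells remained, 334 in all.

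Each group had a plate to itself and animals are not named, which makes every group a single sample. Differences between groups therefore carry no test and no replicate check, and gate and genotype cannot be told apart from the plate. Values listed for the 4 groups follow the order unselected wild type, gated wild type, unselected knockout, gated knockout unless said otherwise. A level is the sum of a gene's counts over the cells of a group, scaled to CPM. A gene was called higher or lower at 2-fold or more on the scale of log2(CPM + 1), a rule about size alone. Intervals are exact 95% intervals for counting error. They leave out the spread between cells, plates and animals, and amplified reads are not independent molecules.

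Macrophages take lipid from outside through scavenger receptors such as Cd36, through receptors for lipoproteins and through uptake of debris, and Lpl frees fatty acids from the triglycerides of lipoproteins. Inside the cell, fatty acid binding proteins carry fatty acids, cholesterol leaves through the transporters Abca1 and Abcg1 onto apolipoprotein acceptors, and what is neither burnt nor exported is stored as esters in droplets coated by perilipins. In microglia that clear myelin and dying cells, Lpl, Fabp5 and Apoe belong to the genes commonly read as a lipid-handling state.

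Sequence before the start of transcription is shown for 3 of the genes, chosen by their levels. Cd36 stood at 0 in most cells, and Abca1 stayed within 2-fold with the gate in both genotypes. Plin2 was high in every group per exon length. Promoter sequence was matched for 7 of the 10 genes in the RefSeq table of build GRCm38.p6, which did not list Lpl, Fabp5 and Abcg1. The 250 bases upstream of the RefSeq start are printed from 5′ to 3′ on the strand of the gene, all of them on the minus strand. They lie at chr5:17835897-17836146 for Cd36, chr4:53159896-53160145 for Abca1 and chr4:86670060-86670309 for Plin2, and the Cd36 window lies inside the longer span that GENCODE gives to the gene. Capitals mark every match, on either strand, to a motif searched.
Cd36: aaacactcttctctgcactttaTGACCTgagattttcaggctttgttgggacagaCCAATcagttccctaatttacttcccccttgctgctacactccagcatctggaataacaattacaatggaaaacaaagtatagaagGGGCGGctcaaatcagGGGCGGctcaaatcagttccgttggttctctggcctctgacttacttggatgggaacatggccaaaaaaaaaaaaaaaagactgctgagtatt
Abca1: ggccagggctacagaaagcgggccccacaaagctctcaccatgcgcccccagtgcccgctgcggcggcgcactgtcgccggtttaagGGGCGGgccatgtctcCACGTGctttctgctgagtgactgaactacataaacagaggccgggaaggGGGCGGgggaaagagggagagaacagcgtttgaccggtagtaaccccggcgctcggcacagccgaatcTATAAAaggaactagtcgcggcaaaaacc
Plin2: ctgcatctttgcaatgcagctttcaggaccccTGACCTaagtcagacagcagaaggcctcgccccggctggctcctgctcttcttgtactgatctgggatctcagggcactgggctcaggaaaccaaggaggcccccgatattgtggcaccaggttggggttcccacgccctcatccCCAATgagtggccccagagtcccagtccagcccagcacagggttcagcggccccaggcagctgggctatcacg
The Cd36 and Plin2 windows each held 1 copy of the nuclear receptor motif AGGTCA, read as TGACCT on the strand of the gene, at -228 to -223 in Cd36 and at -218 to -213 in Plin2. This motif was in 14% of 32851 RefSeq promoter windows of the same length. Each of these windows also held a CCAAT box (CCAAT, in 33.8% of windows). The Abca1 window held an E-box (CACGTG, 6.02% of windows) at -147 to -142 and a TATA box (TATAAA, 12.4%) at -29 to -24. Cd36 and Abca1 each held 2 GC boxes (GGGCGG, 32.7% of windows). None of the 3 windows held the AP-1 letters TGACTCA, found in 4.46% of windows, or the PU.1 letters GAGGAAG, found in 10.6%. Motif matches could overlap, and a match is a description of letters, not a site.

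Gene counts per cell ran from 157653 to 1051282, and medians of detected genes per cell were 2607.5, 3162.5, 2184 and 3995 for the 4 groups. For shares of cells with a gene detected, each cell was therefore thinned at random to 100000 gene counts, a depth that 0 of the 334 cells lay below. Trem2 itself had 1115, 1604, 229 and 413 CPM. All 9 microglia markers had counts in every group. Their summed levels were 39478, 27070, 40296 and 21448 CPM. With the gate 3 of the 9 were at least 2-fold lower in wild-type and 5 in knockout cells, beside 19.9% and 22% of all measured genes. Between the genotypes 3 of the 9 were at least 2-fold lower in gated knockout than gated wild-type cells, beside 12% of measured genes. Their part in the gate and genotype differences below was not tested. Summed levels of 10 border-associated macrophage markers were 843 and 902 CPM in the unselected groups and 2108 and 2089 CPM in the gated groups, where all 10 had counts. With the gate 9 of these 10 were at least 2-fold higher in each genotype, beside 15.2% of measured genes in wild-type and 12.4% in knockout cells. F13a1 and Cd209f were at 0 in both unselected groups, and Cd163 and Lyve1 also in unselected wild-type cells. Markers of monocytes, neutrophils and lymphocytes stayed between 0 and 10.2 CPM in sum. When spike-in RNA replaced gene counts as the scale, the log2 median over all measured genes shifted for the gate (wild type, -0.12 to 0.29; knockout, -0.26 to 0.98) and for the genotype (unselected, 0.05 to -0.38; gated, 0.00 to 0.35).

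Nearly the whole set was higher in gated than in unselected cells of the same genotype. Since the 10 genes were chosen with earlier results of these data known, their counts beside the shares of all genes are a description only. In wild-type cells 9 of the 10 genes were at least 2-fold higher and 0 lower, beside 15.2% of all measured genes that were higher and 19.9% that were lower. In knockout cells 8 were higher and 0 lower, beside 12.4% higher and 22% lower (1307 and 2320 of 10554) among all measured genes. The median log2 difference of the 10 genes was 1.78 in wild-type and 1.92 in knockout cells, against -0.12 and -0.26 over all measured genes, and the knockout median is the same with Cd36 at the lower bound given below. Abca1 stayed within 2-fold in both genotypes and Abcg1 in knockout cells, and both differences were above 0. Abca1 passed 2-fold with the gate under 6 of 12 alternatives in wild-type and 4 of 12 in knockout cells, up to a log2 of 1.37 and 2.1 with spike-in scaling.

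**Figure D1:**
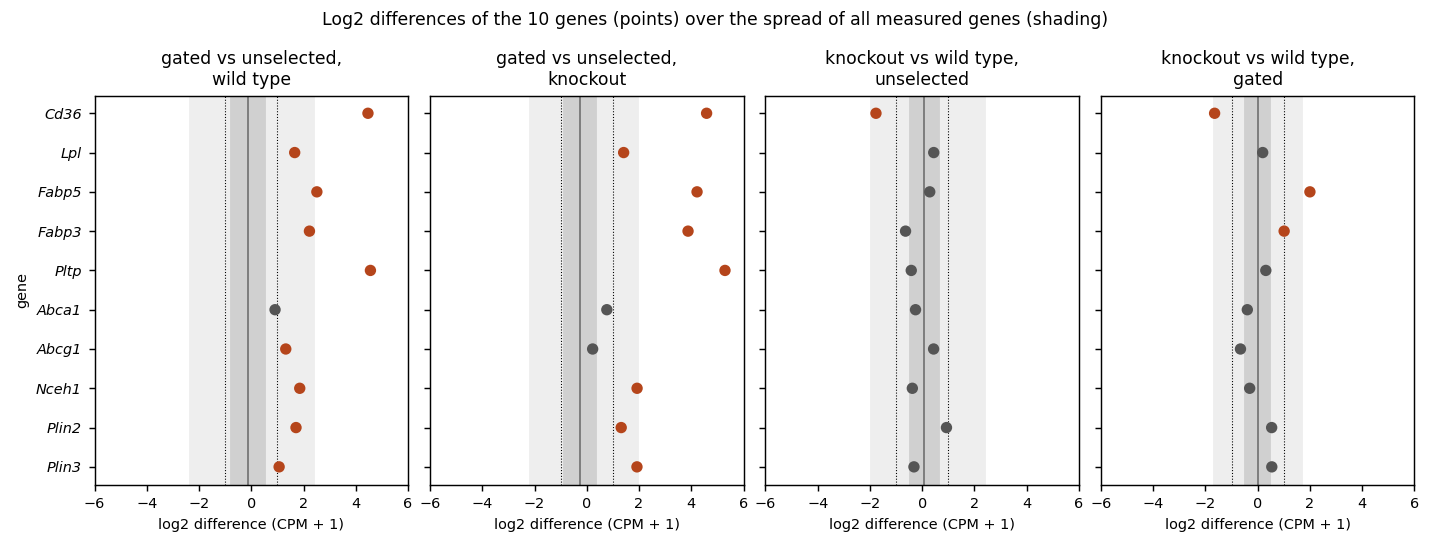
Log2 differences of the 10 genes (points, red at 2-fold or more) in the 4 comparisons, on the log2(CPM + 1) scale. Dark and light shading span the middle 50% and 90% of 10554 measured genes, the grey line is their median and dotted lines mark 2-fold. All 10 genes lie above 0 for both gates, and Fabp5 at 2.00 is the highest of the 10 for the genotype in gated cells.

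Cd36 is a scavenger receptor that takes up long-chain fatty acids and oxidized lipoprotein (ENSMUSG00000002944.15, on mm10 at chromosome 5, 17781690 to 17888801, minus strand). Most cells of every group had no Cd36 count. Counts were present in 1 of 78 unselected wild-type cells, at 269 CPM in that cell, and in 0 of 90 unselected knockout cells, an upper limit of 3.33% of cells by the floor of 3. In gated wild-type cells 13 of 90 had counts, with a median of 248 CPM among those 13 and a highest value of 1960 CPM. In gated knockout cells 4 of 76 had counts, with a highest value of 1099 CPM. The groups overlapped at 0, and the gated groups differed by a few cells of high level. Group levels were 2.41, 74.2, 0 and 23 CPM. The gated level was 30.8-fold the unselected level in wild type (25.1 to 38.2), and at least 437-fold higher in knockout cells, with 3 counts in the whole unselected group as the floor. By the exact interval for counting error, the knockout ratio had a lower limit of 354. A single cell held 71.9% of the Cd36 counts of gated knockout cells and 27.5% of those of gated wild-type cells. Knockout gated cells had a 3.23-fold lower level than gated wild-type cells, with a ratio of knockout to wild type of 0.310 (0.290 to 0.331).

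Most cells with Cd36 also had several markers of border-associated macrophages, which line the meninges and vessels of the brain. After thinning, Cd36 was detected in 12 gated wild-type cells, of which 12 had Mrc1, 11 had Pf4, 9 had Lyve1 and 4 had Cd163. Lyve1 was detected in 9 gated wild-type cells, and all 9 had Cd36. In gated knockout cells Lyve1 was detected in 2 cells, and both had Cd36. The median number of border-associated macrophage markers was 7 of 10 in the 12 gated wild-type cells with Cd36 and 2 in the 78 without. P2ry12, a microglia marker, was detected in 11 of those 12 and in 74 of the 78. In gated knockout cells P2ry12 was detected in 2 of the 4 cells with Cd36 and in 70 of the 72 without. It was detected in 0 of the 2 gated knockout cells with Lyve1. Mrc1 alone was detected in 54.4% to 81.6% of the cells of every group. The 11 gated wild-type cells with any of Cd163, Lyve1, Cd209f or F13a1 held 71.3% of the group's Cd36 counts, and the 6 such gated knockout cells held 95.8%. Without these cells the Cd36 level was 24.4 CPM in gated wild-type and 1.03 CPM in gated knockout cells. The sort took cells of low CD45, and whether cells other than microglia were in the gate was not tested.

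**Figure D2:**
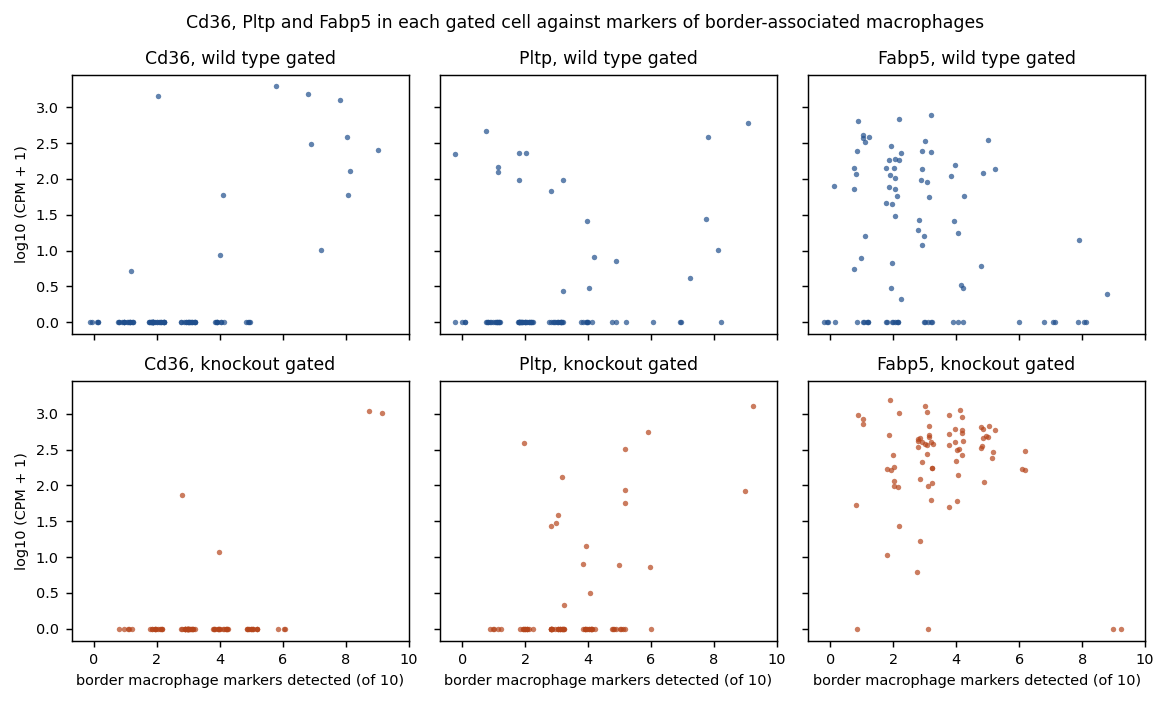
Level of Cd36, Pltp and Fabp5 in each gated cell, as log10(CPM + 1), against the number of 10 border-associated macrophage markers detected after thinning, with wild-type cells above and knockout cells below and points spread sideways. Gated wild-type cells with Cd36 have a median of 7 markers and those without it 2, whereas Fabp5 is high at few markers as well.

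Lpl, lipoprotein lipase, hydrolyses lipoprotein triglycerides and is secreted by macrophages (ENSMUSG00000015568.16, chromosome 8, 68880491 to 68907448, plus strand). The median cell had 171 CPM in unselected wild-type and 176 CPM in unselected knockout cells, with highest values of 4193 and 3324 CPM. In gated cells the medians were 697 CPM in wild type and 947 CPM in knockout, with highest values of 5909 and 5614 CPM. The lowest cell was at 0 in every group, so the groups overlapped over most of their range. Of the gated wild-type cells 74.4%, and of the gated knockout cells 86.8%, lay above the median of the unselected cells of their genotype. Group levels were 392, 1238, 532 and 1416 CPM. Gated cells had 3.16-fold the unselected level in wild type (3.11 to 3.22) and 2.66-fold in knockout cells (2.63 to 2.70). With cells of 2000 to 4000 detected genes alone, the knockout gate difference was 0.65 on the log2 scale, within 2-fold. Lpl was detected in 70.5%, 84.4%, 56.7% and 94.7% of thinned cells in the same order. The Lpl levels of the genotypes were within 2-fold of each other at both gates, with ratios of knockout to wild type of 1.36 (1.33 to 1.38) in unselected and 1.14 (1.13 to 1.16) in gated cells.

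**Figure D3:**
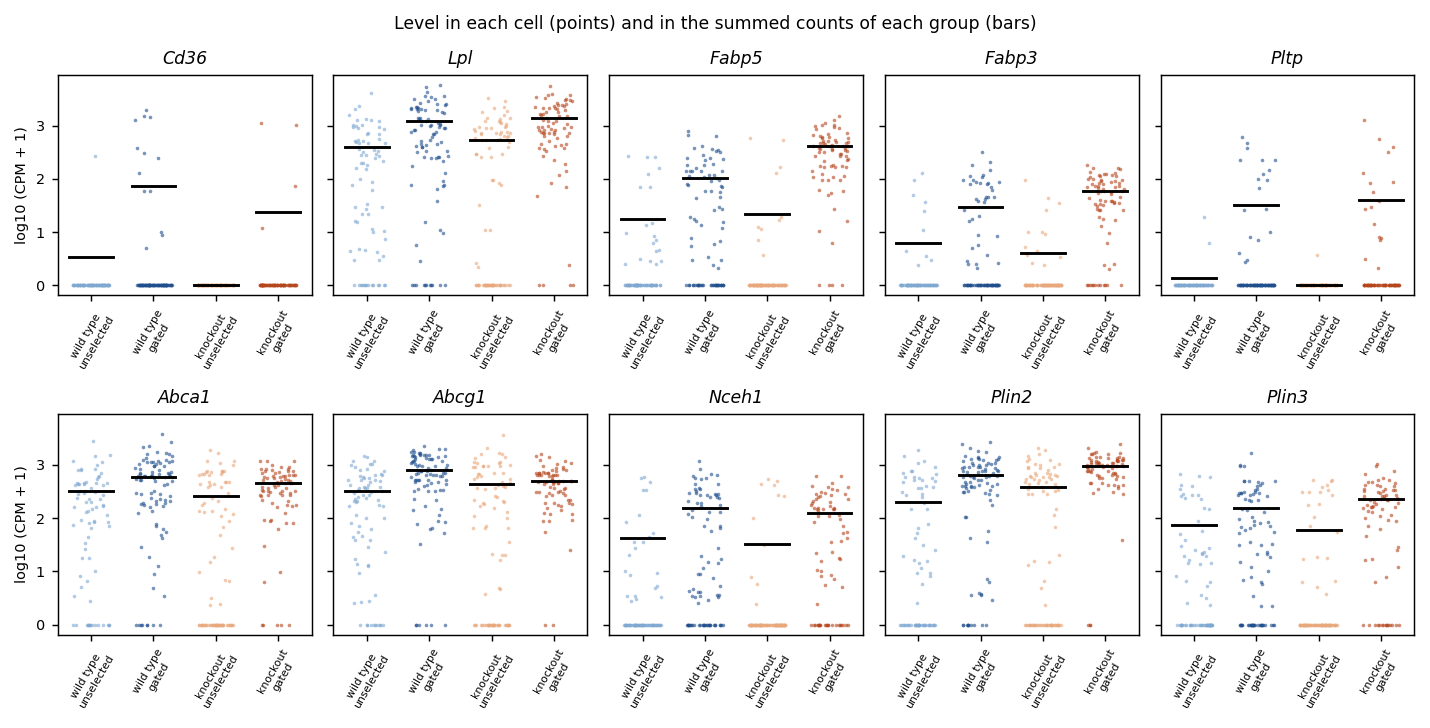
Level of each of the 10 genes in each passing cell (points), as log10(CPM + 1), in the 4 groups, with black bars for the level from summed counts. Fabp5 and Fabp3 leave 0 in most gated knockout cells, while Cd36 and Pltp remain at 0 in most cells of every group.

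Fabp5 and Fabp3 were the 2 genes at least 2-fold higher in knockout than in wild-type cells of the gate. Both encode small cytosolic proteins that bind long-chain fatty acids and carry them to membranes, mitochondria and nuclear receptors. Fabp5 (ENSMUSG00000027533.10, chromosome 3, 10012548 to 10016607, plus strand) was at 0 in the median cell of both unselected groups, with highest values of 263 CPM in wild type and 578 CPM in knockout. The median was 14.9 CPM in gated wild-type cells, with a highest value of 778 CPM. In gated knockout cells the median was 340 CPM and the highest value 1544 CPM. Of the gated knockout cells 92.1% lay above the gated wild-type median and 75% above the gated wild-type upper quartile of 132 CPM. The group levels were 16.9, 101, 20.9 and 407 CPM.

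Fabp5 in gated cells was at 5.96-fold the unselected level in wild type (5.50 to 6.47) and 19.5-fold in knockout cells (18.4 to 20.7). The gate difference on the log2 scale was thus 1.71 larger in knockout cells, beside a median of -0.09 for that quantity over all measured genes. The knockout level was 4.03-fold the wild-type level in gated cells (3.91 to 4.15) and 1.23-fold in unselected cells (1.12 to 1.36). For gated cells the difference of the genotypes in Fabp5 was above 2-fold under all 12 alternatives tried, with log2 values from 1.53 to 2.53. The small difference in unselected cells turned below 0 under 5 of the 12. It was -4.11 without cells with Mrc1, Cd163, Lyve1, Cd209f or F13a1, past 2-fold, and between -0.19 and -0.01 in the other 4. Fabp5 was detected in 20.5% (12.2 to 31.2), 54.4% (43.6 to 65), 7.78% (3.18 to 15.4) and 94.7% (87.1 to 98.5) of thinned cells.

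Fabp3, the heart-type member of the family (ENSMUSG00000028773.8, chromosome 4, 130308595 to 130315463, plus strand), was at 0 in the median cell of 3 groups. Highest values there were 129 CPM in unselected wild-type, 318 CPM in gated wild-type and 93.5 CPM in unselected knockout cells. The median gated knockout cell had 48.1 CPM and the highest 180 CPM, so the gated wild-type group held the single highest cell and the gated knockout group the more even level. Group levels were 5.23, 28.1, 3.01 and 57.8 CPM. With the gate Fabp3 was at 5.37-fold the unselected level in wild type (4.64 to 6.25) and 19.2-fold in knockout cells (16.5 to 22.6). Between the genotypes the knockout level was 2.06-fold the wild-type level in gated cells (1.93 to 2.19) and 0.574 of it in unselected cells (0.466 to 0.707). The 2-fold call in gated cells was lost in cells with 2000 to 4000 detected genes, at a log2 of 0.71, and without cells with 3 or more border-associated macrophage markers, at 0.55. Fabp3 was detected in 34.4% (24.7 to 45.2) of gated wild-type and 78.9% (68.1 to 87.5) of gated knockout cells after thinning, against 10.3% and 8.89% in the unselected groups.

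Both genes have processed pseudogenes of near-identical sequence, 5 for Fabp5 at 94% to 98.3% identity and 1 for Fabp3 at 99.3% over 402 bases. None of them is a row of the count table, and the treatment of reads that match several places is not stated in these sources. Fabp3 also shares 81 exon bases with Zcchc17, which lies on the opposite strand. Over all deposited cells Zcchc17 had 6555 counts and Fabp3 had 4848. Whether the counting used strand is not stated, and the part of Zcchc17 reads in the Fabp3 counts was not tested. Fabp5 and Fabp3 were found together in 59 of 76 gated knockout cells (77.6%) and in 23 of 90 gated wild-type cells (25.6%). In the unselected groups they were together in 4 of 78 wild-type and 2 of 90 knockout cells.

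**Figure D4:**
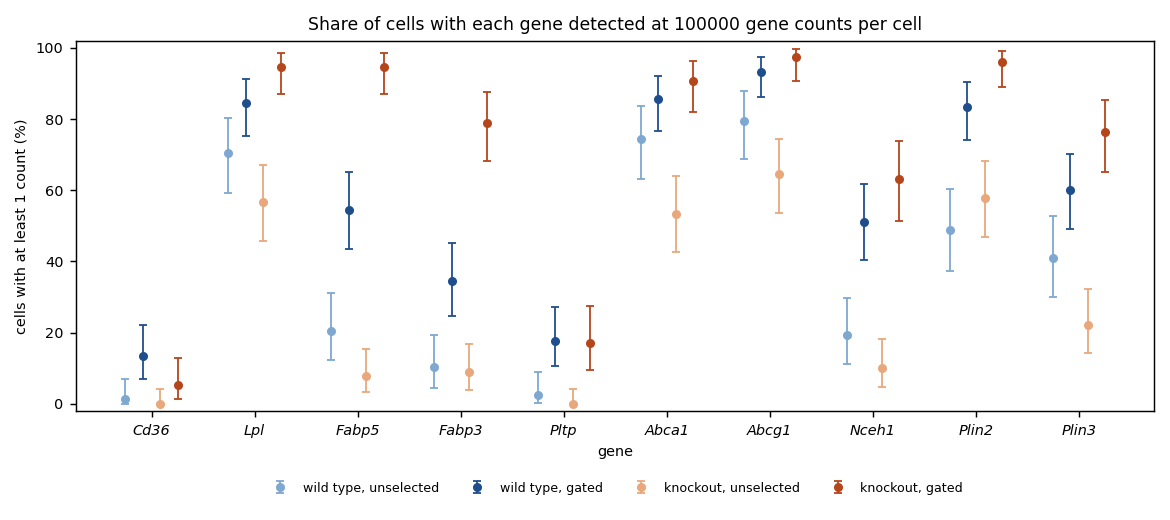
Share of cells with at least 1 count of each gene after thinning to 100000 gene counts (points) with exact 95% Clopper-Pearson intervals, by group. Fabp5 stands at 94.7% in gated knockout and 54.4% in gated wild-type cells, and Fabp3 at 78.9% and 34.4%.

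Pltp moves phospholipids between lipoproteins and supplies lipid to acceptors of effluxed cholesterol (ENSMUSG00000017754.13, chromosome 2, 164839518 to 164857711, minus strand). It was almost confined to gated cells among the 4 groups. Wild-type unselected cells held 15 counts in 2 cells, the higher at 18.5 CPM, and unselected knockout cells held 2 counts in 1 cell. In gated wild-type cells 19 of 90 had counts, with a median of 96.0 CPM among those and a highest value of 608 CPM. Among gated knockout cells 17 of 76 had counts, with a median of 37.7 CPM among those and a highest value of 1285 CPM. The median cell of every group was at 0. The gated levels were 31.6 and 39.5 CPM, and the ratio to unselected cells was 82.1 in wild type (49.6 to 147) and 1124 in knockout (311 to 9284). A single cell held 49% of the counts of gated knockout cells, and without the highest cell of each group the genotype difference turned from 0.31 to -0.23 on the log2 scale. The 6 gated knockout cells with any of Cd163, Lyve1, Cd209f or F13a1 held 64.4% of the Pltp counts and the 11 such wild-type cells held 40.8%. Without them the Pltp level was 21.4 CPM in gated wild-type and 15 CPM in gated knockout cells, beside unselected levels of 0.385 and 0.035 CPM. Without cells that had Mrc1 or any of these 4 markers, the gate difference of Pltp in knockout cells was -0.12 on the log2 scale and the genotype difference in gated cells -4.95.

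The Pltp gene shares 495 exon bases with Ctsa, which lies on the opposite strand, and whether the counting used strand is not stated in these sources. Ctsa was at 3021, 4761, 2928 and 4510 CPM in the 4 groups and was detected in 95.6% to 100% of cells. The part of Ctsa reads in the Pltp counts was not tested.

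Abca1 passes cholesterol and phospholipid to lipid-poor apolipoproteins (ENSMUSG00000015243.4, chromosome 4, 53030787 to 53159895, minus strand). The median cell was at 159 CPM in unselected wild-type, 520 CPM in gated wild-type, 7.40 CPM in unselected knockout and 388 CPM in gated knockout cells. Highest values were 2817, 3767, 1883 and 1202 CPM in the same order, and 0 was the lowest value in each group. Group levels were 317, 595, 265 and 452 CPM. Gated cells had 1.88-fold the unselected level in wild type (1.84 to 1.92) and 1.70-fold in knockout cells (1.67 to 1.74). Abca1 was detected in 74.4%, 85.6%, 53.3% and 90.8% of thinned cells. Ratios of knockout to wild type were 0.837 (0.817 to 0.857) in unselected and 0.760 (0.747 to 0.773) in gated cells.

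Abcg1, which exports cholesterol onto larger lipoprotein particles, was at least 2-fold higher with the gate in wild-type cells and within 2-fold in knockout cells (ENSMUSG00000024030.7, chromosome 17, 31057675 to 31117988, plus strand). Median cells had 221 CPM in unselected wild-type, 691 CPM in gated wild-type, 122 CPM in unselected knockout and 472 CPM in gated knockout cells. The highest cells were at 1470, 2240, 3589 and 1598 CPM, so the unselected knockout group held both many cells at 0 and the highest single cell. Group levels were 320, 799, 433 and 506 CPM. The gate went with 2.5-fold the unselected level in wild type (2.45 to 2.55) and 1.17-fold in knockout cells (1.15 to 1.19), a gap of -1.09 between the log2 differences. Spike-in scaling took the knockout gate difference of Abcg1 to 1.56. Knockout gated cells had 0.634 of the gated wild-type level (0.624 to 0.643), and 27.6% of them lay above the gated wild-type median. In unselected cells the knockout level was 1.35-fold the wild-type level (1.32 to 1.38) by gene counts and lower by spike-in scaling, at a log2 of -0.05. Abcg1 was detected in 79.5%, 93.3%, 64.4% and 97.4% of thinned cells.

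Nceh1 cleaves the fatty acid from cholesterol esters so that cholesterol can leave the cell (ENSMUSG00000027698.14, chromosome 3, 27182965 to 27284608, plus strand). Unselected cells were at 0 in the median, with highest values of 595 CPM in wild type and 534 CPM in knockout. Gated medians were 9.36 CPM in wild type and 47 CPM in knockout, with highest values of 1188 and 609 CPM. Group levels were 41.3, 152, 31.5 and 122 CPM. Nceh1 with the gate was at 3.67-fold the unselected level in wild type (3.48 to 3.88) and 3.89-fold in knockout cells (3.69 to 4.1), so the gate differences of the genotypes were 0.07 apart on the log2 scale. Nceh1 was detected in 19.2%, 51.1%, 10% and 63.2% of thinned cells. The genotype ratios were 0.764 (0.714 to 0.817) in unselected and 0.808 (0.782 to 0.835) in gated cells.

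Plin2 and Plin3 coat lipid droplets, Plin2 as a protein that is stable on droplets and Plin3 as one that moves between the cytosol and nascent droplets. Per kilobase of exon, Plin2 had the highest level of the 10 genes in each of the 4 groups, at 56.8, 186, 108 and 270 CPM per kilobase. Plin2 (ENSMUSG00000028494.12, chromosome 4, 86648386 to 86670060, minus strand) had median cells of 9.52 CPM in unselected wild-type, 524 CPM in gated wild-type, 89.7 CPM in unselected knockout and 934 CPM in gated knockout cells. The highest cells were at 1901, 2661, 2046 and 2478 CPM and the lowest at 0 in every group. Group levels were 200, 654, 381 and 949 CPM. The gated level was 3.28-fold the unselected level in wild type (3.20 to 3.36) and 2.5-fold in knockout cells (2.46 to 2.54). The knockout level was above the wild-type level at both gates, 1.91-fold in unselected (1.86 to 1.96) and 1.45-fold in gated cells (1.43 to 1.47), both within 2-fold. Its coefficient of variation across gated knockout cells, 0.521, was the lowest of the 10 genes there, against 0.898 across gated wild-type cells. The lower and upper quartiles were 590 and 1218 CPM in gated knockout and 189 and 920 CPM in gated wild-type cells. Plin2 was detected in 48.7%, 83.3%, 57.8% and 96.1% of thinned cells. A pseudogene of Plin2, Gm12551, matches it at 96.1% identity over 259 bases and is not a row of the count table.

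Plin3 (ENSMUSG00000024197.10, chromosome 17, 56277476 to 56292873, minus strand) was at 0 in the median unselected cell of both genotypes, with highest values of 671 CPM in wild type and 522 CPM in knockout. Gated medians were 31 CPM in wild type and 172 CPM in knockout, with highest values of 1642 and 1042 CPM. Group levels were 74.5, 157, 59.7 and 229 CPM. Plin3 in gated cells was at 2.1-fold the unselected level in wild type (2.02 to 2.19) and 3.83-fold in knockout cells (3.69 to 3.98). The wild-type call is close to the threshold: it was lost in cells with 2000 to 4000 detected genes (log2 of 0.44) and without cells with 3 or more border-associated macrophage markers (0.70), and its sign turned without cells with Mrc1, Cd163, Lyve1, Cd209f or F13a1 (-0.14). Plin3 was detected in 41%, 60%, 22.2% and 76.3% of thinned cells. The knockout level was 1.46-fold the wild-type level in gated cells (1.42 to 1.5) and 0.800 of it in unselected cells (0.762 to 0.841).

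Between the genotypes few of the 10 genes passed 2-fold. In unselected cells 0 were higher and 1 lower in knockout, beside 16.5% and 13.3% of measured genes, and the 1 was Cd36, with all 94 wild-type counts in 1 cell. In gated cells 2 were higher and 1 lower, beside 11.4% and 12% (1203 and 1276) of measured genes, namely Fabp5 and Fabp3 higher and Cd36 lower. The Cd36 call in gated cells held under 10 of the 12 alternatives and was lost in cells with 2000 to 4000 detected genes. The median log2 difference of the 10 genes was -0.29 in unselected and 0.25 in gated cells, against 0.05 and 0.00 over all measured genes. Fabp3 and Nceh1 came to at least 2-fold lower in unselected knockout cells under 3 of the 12 alternatives each, with lowest log2 values of -3.22 and -2.39. Fabp5 (-4.11) and Plin3 (-2.41) did so under 1 alternative each, the one without cells with Mrc1, Cd163, Lyve1, Cd209f or F13a1, where 5 of the 10 genes were lower in all. Each group enters 2 of the 4 comparisons, so their values are not independent of each other.

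The order of the genes per exon length was alike in the unselected groups. All ranks here hold for the joined length of annotated exons only. After Plin2 came Abcg1, Lpl and Abca1, at 43.8, 37.4 and 30.6 CPM per kilobase in wild-type and 59.3, 50.8 and 25.6 in unselected knockout cells. Fabp5 had rank 8 of 10 in unselected wild-type cells at 4.75 CPM per kilobase and rank 8 in gated wild-type cells at 28.3. For gated knockout cells Fabp5 had rank 3 at 114 CPM per kilobase, after Lpl at 135, and Fabp3 had rank 4 at 70.2. Fabp3 and Abcg1 in that group, at 70.2 and 69.3 CPM per kilobase, are neighbours whose levels per length are nearly equal, as were Nceh1 and Fabp5 in gated wild-type cells at 28.8 and 28.3. Cd36 and Pltp held the last 2 places in all 4 groups.

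**Figure D5:**
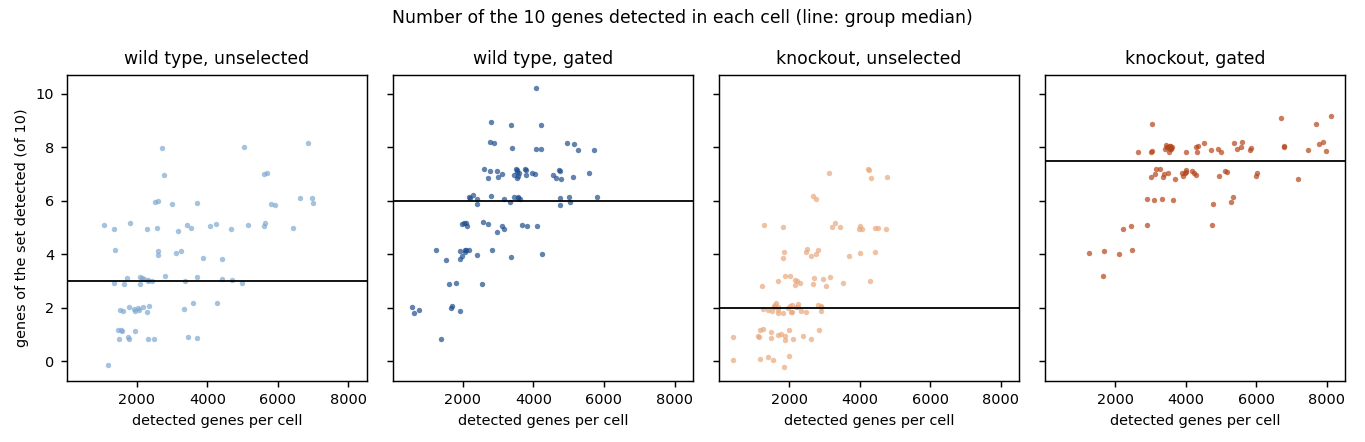
Number of the 10 genes detected in each thinned cell, spread slightly up and down, against the number of detected genes of the cell, in the 4 groups, with lines for group medians. Medians were 3 and 6 in the unselected and gated wild-type groups, and 2 and 7.5 in the knockout groups.

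Single cells combined more of the genes in the gated groups. At 100000 gene counts per cell, the median number of the 10 genes detected was 3, 6, 2 and 7.5, with ranges of 0 to 8, 1 to 10, 0 to 7 and 3 to 9. Cells with 5 or more of the genes made up 38.5%, 74.4%, 20% and 93.4% of the groups, and cells with 8 or more made up 3.85%, 14.4%, 0% and 50%. The number of the 10 genes detected went with the number of all genes detected in a cell before thinning. Spearman correlations were 0.58, 0.68, 0.68 and 0.45 across the cells of the 4 groups. Only the number of the 10 genes was taken at equal depth, so the number of all genes also carries differences in depth. Among cells with 2000 to 4000 detected genes, which left 37, 52, 42 and 35 cells, the medians were 3, 6, 3 and 7. Median detected genes within that range were still 2605, 2980, 2683 and 3390, so the range did not make the groups alike. In those cells 29.7%, 84.6%, 19% and 94.3% had 5 or more.

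In gated cells, Abca1 and Abcg1 were detected together in 73 of 90 wild-type and 68 of 76 knockout cells, with Spearman correlations of level of 0.34 and 0.23. Lpl and Plin2 were together in 67 of 90 and 70 of 76 cells, with correlations of 0.23 and 0.22. Genes that are each detected in most cells are together in most cells in any case. Fabp5 with Fabp3 reached 0.29 and 0.33. Other pairs, of which only examples are given, were below 0 in both gated wild-type and gated knockout cells. Among them were Fabp5 with Abca1 (-0.35 and -0.03), Fabp5 with Abcg1 (-0.21 and -0.35) and Cd36 with Abcg1 (-0.31 and -0.23). Pairs without a cholesterol transporter were also among them, such as Lpl with Pltp (-0.24 and -0.19) and Cd36 with Fabp5 (-0.22 and -0.02). Cd36 and Pltp were together in 4 wild-type and 2 gated knockout cells.

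Among 4707 genes detected in at least 20% of both gated groups, those most like Fabp5 across cells were Tpi1, an enzyme of glycolysis, the tetraspanin Cd9 and the galectin Lgals3. Their mean Spearman correlations over the 2 gated groups were 0.54, 0.52 and 0.50. For Lpl the closest were Ephx1 (0.41), an epoxide hydrolase, and Cd9 (0.40). For Abca1 the closest was Mylip (0.41), a ubiquitin ligase that degrades lipoprotein receptors. No gene reached a mean of 0.4 with Fabp3, Abcg1, Nceh1, Plin2 or Plin3. These correlations are across cells of 1 plate per group and are given without a test.

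Other genes of the same pathways are given beside the shares of all measured genes, 15.2% higher and 19.9% lower with the gate in wild-type cells and 12.4% and 22% in knockout cells. Among those of fatty acid uptake and binding, 3 of 17 measured were higher and 5 lower in gated wild-type than unselected cells, and 1 was higher and 4 lower in knockout cells, counts not far from those shares. Lrp1, a lipoprotein receptor, was at 647 CPM in unselected and 436 CPM in gated wild-type cells. Scarb2, a lysosomal membrane protein, was at 127 and 370 CPM in the same groups, and at 216 and 267 CPM in the knockout groups. Scarb1 was at 160, 122, 157 and 195 CPM in the 4 groups, within 2-fold for both gates. Fabp4, the adipocyte member of the Fabp family, had 0 counts in all 4 groups. Around Lpl, 4 of 11 genes were higher and 1 lower with the gate in wild-type cells, and 5 and 2 in knockout cells. Sel1l was at 128, 142, 160 and 123 CPM in the 4 groups and Sort1 at 67.7, 46.3, 87.4 and 48.9 CPM. Both stayed within 2-fold for both gates. Lmf2 was at 154, 93.6, 162 and 54.6 CPM, at least 2-fold lower with the gate in knockout cells. Apoc2, the activator of Lpl, was at 1.41, 17.5, 0 and 18.2 CPM, whereas Gpihbp1, its anchor on endothelium, had 0 counts throughout.

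Among other genes of cholesterol efflux, 2 of 13 were higher and 0 lower with the gate in wild-type cells, and 4 and 0 in knockout cells. Apoe, the acceptor of effluxed cholesterol, was at 11090 and 30471 CPM in unselected and gated wild-type cells and at 11028 and 29891 CPM in the knockout groups, so its genotype ratios were 0.994 and 0.981. Mylip and Lpcat3, which like Abca1 and Abcg1 are targets of liver X receptors, were within 2-fold in all 4 comparisons, Mylip at 219, 268, 244 and 158 CPM and Lpcat3 at 235, 237, 300 and 193 CPM. Of the other genes of lysosomal lipid and cholesterol ester handling 4 of 14 were higher and 1 lower in wild type, and 4 and 2 in knockout cells. Psap, Npc2 and Gm2a, which help lysosomal enzymes and cholesterol export, stayed within 2-fold for both gates.

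Of the other droplet genes 2 of 17 were higher and 5 lower with the gate in wild-type cells, and 1 and 4 in knockout cells, again not far from the shares of all measured genes. Soat1, which makes the cholesterol esters that Nceh1 cleaves, was at 245 and 535 CPM in unselected and gated wild-type cells and at 263 and 684 CPM in the knockout groups. Agpat3, at 115, 105, 147 and 131 CPM, and Rab18, at 79.8, 122, 115 and 113 CPM, stayed within 2-fold for both gates. The other perilipins were at or near 0, with Plin5 at 0 counts in all groups and Plin1 and Plin4 without counts in the gated groups. Of 17 genes of fatty acid oxidation and its receptors 4 were higher and 2 lower in wild type, and 2 and 0 in knockout cells. Hadha, Ech1 and Acaa2, enzymes of oxidation, stayed within 2-fold for both gates. Pparg, a nuclear receptor for fatty acids, was at 0, 0.949, 0 and 6.56 CPM. For the genotype in gated cells the same 6 lists held 3 higher and 1 lower of 17, 1 and 1 of 11, 2 and 1 of 13, 0 and 0 of 14, 1 and 1 of 17, and 1 and 1 of 17, in the order given here, beside 11.4% higher and 12% lower of all measured genes.

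How much of the counts of the other 8 genes lay in cells with border-associated macrophage markers varied with the markers required. Cells with 3 or more of the 10 markers were 40 of 90 gated wild-type and 59 of 76 gated knockout cells. They held 33.8% to 55.4% and 72.5% to 80.8% of the counts of each of these 8 genes. Their medians were 9 and 8 of the 9 microglia markers, and 3689 and 4015 detected genes, against 2811.5 and 3608 in the other gated cells. Stab1 and Mrc1 were detected in 92.2% and 58.9% of all gated wild-type cells, and in 100% and 81.6% of gated knockout cells. Whether cells with 3 or more markers were border-associated macrophages was not tested. By a split chosen after seeing the data, the 11 gated wild-type cells with Cd163, Lyve1, Cd209f or F13a1 held between 6.15% and 13.7% of the counts of each of these 8 genes, and the 6 such gated knockout cells held between 1.35% and 7.03%. Fabp5 was at 53 CPM in those wild-type cells and 108 CPM in the others, and at 88.2 and 428 CPM in knockout cells. Without these cells the counts of genes at least 2-fold higher were 9 and 8 for the gates, as with them, and 1 for the genotype in gated cells, where Fabp3 came to 0.92 on the log2 scale.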

How the data were processed

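Single microglia of 4 groups, 369 cells in all with 1 cell per sample, were read from 1 table of raw counts per gene that the authors deposited. STAR 2.5.3a, HTSeq, Picard and Trim Galore 0.4.3 and the build mm10 are named, per the submitters' processing notes. The annotation and the use of strand are not given there. Groups, plates and the 3 quality calls came from the labels. The 92 spike-in RNAs stayed out of library sizes. Counts were summed over passing cells to CPM, differences were taken on log2(CPM + 1), and a gene was called at 2-fold. Intervals are exact Poisson for levels, conditional binomial for ratios and Clopper-Pearson for shares. No model was fitted, since each group is 1 sample. Wells with 2 cells were not searched for. The calculation of the call was run on simulated Poisson counts without spread between cells, plates or animals, so it cannot tell how calls hold in these data. Coordinates and exon lengths are from GENCODE M21 on mm10. Of 196 listed symbols, 189 matched by symbol and 4 by an older symbol. Named beside the 10 genes were the 3 measured genes of highest mean level in each of 6 pathway lists, list genes at 0 in some group, and up to 3 genes per member with a mean correlation of 0.4 or more. Alternatives were other scalings, pseudocounts, measuring levels, thinning depths and subsets of cells. Members and lists were chosen with earlier results of these data known. Tools were edgeR 4.0.16 and DESeq2 1.42.0 (scaling factors only), R 4.3.3, pandas 2.3.3 and scipy 1.17.1.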

Additional observations from a re-analysis of the deposited data

Results flagged for a closer look

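The genotype difference had opposite signs at the 2 gates for 4 genes, and with 1 sample per group this was not tested. The log2 difference of knockout and wild type was larger in gated than in unselected cells by 1.65 for Fabp3 (-0.64 unselected, 1.01 gated), by 0.86 for Plin3 (-0.32 and 0.54) and by 0.73 for Pltp (-0.42 and 0.31). It was smaller in gated cells for Abcg1, with a gap of -1.09 (0.44 unselected, -0.66 gated). The Pltp value rests on 15 and 2 counts in the unselected groups, and the sign for Abcg1 in unselected cells turned with spike-in scaling.

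The 35 wells that failed the quality calls also held counts of these genes, above what a count of 0 allows, and enter no comparison above. Among them 18 wells had Lpl, 15 had Abca1, 14 had Abcg1, 12 had Plin2, 10 had Plin3, 8 had Fabp5, 6 had Nceh1, 4 had Fabp3 and 1 had Cd36. Of the 35, 15 reached 100000 gene counts, and 17 came from the knockout gated plate. That plate held 6 of the 8 wells with Fabp5, all 4 with Fabp3 and 4 of the 6 with Nceh1. It also held 7 of the 15 with Abca1, 7 of the 14 with Abcg1, 6 of the 12 with Plin2, 6 of the 18 with Lpl and 3 of the 10 with Plin3.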

How the results depend on the processing

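The counts of genes at least 2-fold higher with the gate ran from 8 to 10 in wild-type and from 7 to 10 in knockout cells over 12 alternatives. For the genotype in unselected cells the count was 1 (Plin2, log2 of 1.02) without the highest cell of each gene and group, and 0 otherwise, while the count of lower genes, reported as 1, was 2 with a pseudocount of 0.1 CPM and in cells with 2000 to 4000 detected genes, 3 without cells with 3 or more border-associated macrophage markers and 5 without cells with Mrc1, Cd163, Lyve1, Cd209f or F13a1. For the genotype in gated cells the count of higher genes, reported as 2, was 1 in cells with 2000 to 4000 detected genes. It was also 1 without cells with 3 or more border-associated macrophage markers and 1 without cells with Cd163, Lyve1, Cd209f or F13a1. It was 4 without cells that also had Mrc1. The count of lower genes in that comparison, reported as 1, was 0 in cells with 2000 to 4000 detected genes. The last 2 settings were chosen after seeing the data. Without cells with Mrc1 or the other 4 markers, which left 35, 37, 40 and 14 cells, signs of called differences turned for Cd36 with the gate in wild type (-2.50) and for the genotype in gated cells (2.17), for Plin3 with the gate in wild type (-0.14) and for Pltp with the gate in knockout cells (-0.12). Differences within 2-fold turned there for the genotype in Fabp5 (-4.11) and Lpl (-0.45) of unselected and Pltp (-4.95) of gated cells. Cd36 had no difference left to give in knockout cells without cells with 3 or more markers, where both groups were at 0. Of 480 log2 differences under alternatives 161 stayed within the counting interval of the reported value and 319 did not. Of 200 detection shares 197 stayed within it, and another random thinning, also chosen after seeing the data, moved shares by at most 5.13 percentage points. The percent of measured genes at 2-fold was lower when measured at 20 CPM, by construction with fewer low genes (8.80 higher with the gate in knockout cells). Replicate error is not known, so no value here has a limit for it. No paired analysis was possible because each group is 1 sample and no result comes from a test.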
